A study of Homo sapiens with 16 samples.

Results

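Glycolysis, hypoxia and pentose phosphate genes were followed in VCaP, an established human prostate cancer cell line whose growth responds to androgen. The set holds 43 genes, taken by symbol from the deposited gene tables, of 58302 genes in the count files. They comprise hexose transporters, the enzymes of glycolysis and of fructose-2,6-bisphosphate turnover, lactate dehydrogenases and lactate carriers, pyruvate dehydrogenase kinases, 3 pentose phosphate enzymes, and hypoxia factors with some of their target genes. Sequencing of polyA RNA covered 16 libraries in 8 groups of 2.

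Both lines are VCaP. Vc cells had been kept for 4 months in ethanol, the vehicle, and Ver cells for 4 months in 1 µM enzalutamide, a drug that blocks the androgen receptor. Before treatment all cells were deprived of steroid hormone: they spent 48 h or longer without phenol red, in serum stripped with charcoal. Treatment lasted 24 h and was control, DHT (dihydrotestosterone, the potent natural androgen, 1 nM), enzalutamide (1 µM), or both together. Each of Vc and Ver is 1 line, so a difference between them is a difference between 2 cultures with different histories. The labels do not state whether the 2 libraries of a group came from separate cultures, nor whether Ver cells stayed in the drug during starvation, and p-values measure the spread between these libraries only.

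Glycolysis splits glucose into pyruvate in the cytosol. Hexokinase catalyses its first step and phosphofructokinase its committed step. Fructose-2,6-bisphosphate, made and removed by the PFKFB enzymes, activates phosphofructokinase. Pyruvate is either reduced to lactate by lactate dehydrogenase and exported, or enters mitochondria, where the pyruvate dehydrogenase kinases restrain its oxidation, while the pentose phosphate pathway diverts glucose-6-phosphate to NADPH and ribose. When oxygen falls, prolyl hydroxylases (EGLN) stop marking HIF alpha proteins for destruction, and the stabilised factors raise many glycolytic genes. HIF alpha is controlled largely at the protein level, which RNA counts do not measure.

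The libraries held between 8155244 and 13273523 counts in genes, and 45.0 to 50.6% of reads were counted as matching no annotated feature. The counts do not say where those reads lay. The 9 genes listed for luminal prostate cells were detected in every library, at 21.0 to 6196 CPM. CPM is the scaled read count of a gene relative to its library's size. ERG is on that list but is not specific to luminal cells. The 19 markers of basal, stromal, endothelial and immune cells lay between 0 and 81.1 CPM, the highest value being the stromal proteoglycan gene LUM, and without LUM they reached 3.37 CPM at most. KRT5, a basal keratin gene, had no count. The summed stromal markers were 15.7 to 17.5 CPM in Vc control and 2.05 to 3.15 CPM in Vc with DHT, and 52.9 to 59.7 CPM in Ver control against 3.03 to 3.14 CPM in Ver with DHT. Most of each control sum was LUM, at 13.5 CPM or more in Vc and 49.6 CPM or more in Ver. With DHT LUM reached 0.61 CPM in Vc and 1.20 CPM in Ver. PDGFRB fell too, from at most 1.16 CPM to 0. COL1A1 did not fall, at 2.39 and 0.93 CPM in Vc control and 1.72 and 2.54 CPM with DHT. In Ver COL1A1 was at 1.94 and 1.88 CPM in control and 2.23 and 1.94 CPM with DHT. The part of the stromal markers in the results was not tested. All Vc libraries were read on lane 8 and all Ver libraries on lane 2, per the labels, so lane and line cannot be told apart.

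Of the 43 genes, 40 passed the filter on low counts. PDK4, a pyruvate dehydrogenase kinase, had 50 counts over the 16 libraries and at most 1.00 CPM. CA9, a carbonic anhydrase widely used as a hypoxia marker, had 12 counts and was at 0 in 10 libraries. BNIP3L, a mitophagy receptor gene, had 18 counts. These 3 genes were not tested.

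The promoters of 38 members were matched by symbol in a RefSeq table (GRCh38.p14), which gives 1 start per gene although several of these genes have others. The 250 bases before the start were searched on both strands for ACGTG and GCGTG, the core letters bound by HIF, and for AGAACA, letters of the site bound by 1 androgen receptor monomer. These 5 promoters are shown because they belong to members named in the results and span the range from no match to 5, and capitals mark each ACGTG or GCGTG match or its reverse complement, overlapping matches merged.
HK2 (chr2:74833877-74834126, plus strand): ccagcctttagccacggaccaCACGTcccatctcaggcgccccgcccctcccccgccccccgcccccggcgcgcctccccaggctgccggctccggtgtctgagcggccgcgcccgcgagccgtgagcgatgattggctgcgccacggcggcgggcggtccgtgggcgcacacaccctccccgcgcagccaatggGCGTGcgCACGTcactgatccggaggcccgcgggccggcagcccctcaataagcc
PGK1 (chrX:78103998-78104247, plus strand): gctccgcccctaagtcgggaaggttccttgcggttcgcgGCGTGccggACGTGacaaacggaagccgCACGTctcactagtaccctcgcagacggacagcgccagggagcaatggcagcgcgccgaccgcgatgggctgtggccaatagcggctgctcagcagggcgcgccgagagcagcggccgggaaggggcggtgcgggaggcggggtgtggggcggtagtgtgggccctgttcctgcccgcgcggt
LDHA (chr11:18394313-18394562, plus strand): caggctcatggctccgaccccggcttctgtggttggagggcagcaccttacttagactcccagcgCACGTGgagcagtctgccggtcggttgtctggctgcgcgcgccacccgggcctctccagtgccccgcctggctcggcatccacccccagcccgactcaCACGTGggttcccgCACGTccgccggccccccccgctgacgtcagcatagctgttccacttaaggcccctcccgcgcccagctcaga
LDHB (chr12:21657843-21658092, minus strand): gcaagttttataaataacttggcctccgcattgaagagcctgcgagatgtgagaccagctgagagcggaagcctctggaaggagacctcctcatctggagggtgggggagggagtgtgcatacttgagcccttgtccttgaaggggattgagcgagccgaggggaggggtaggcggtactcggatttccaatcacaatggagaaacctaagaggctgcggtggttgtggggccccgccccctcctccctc
BNIP3 (chr10:131981924-131982173, minus strand): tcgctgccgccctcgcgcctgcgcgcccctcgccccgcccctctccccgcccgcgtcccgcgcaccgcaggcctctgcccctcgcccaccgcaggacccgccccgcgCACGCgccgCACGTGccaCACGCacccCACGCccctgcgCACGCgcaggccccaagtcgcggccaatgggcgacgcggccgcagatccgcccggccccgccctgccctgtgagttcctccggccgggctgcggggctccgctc
The first base of each run lay at -229, -55 and -48 in HK2, and at -211, -202 and -183 in PGK1, where -1 is the base before the start. In LDHA the runs began at -185, -87 and -73, and in BNIP3 at -143, -134, -125, -116 and -104. LDHB had none in this window.

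Either core was present in 21 of 38 member promoters, and in 43.205% of all 35116 promoters in the table. At least 2 separate matches occurred in 8 of 38, and in 16.246% of all promoters. Among members that rose with DHT in Vc 10 of 15 promoters held a core, and among those that fell 6 of 14, so both kinds were found in each direction. AGAACA occurred in 2 of 38 member promoters (12.388% of all). A match describes letters only, and short cores occur often by base composition.

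DHT changed most of these genes, in both directions. In Vc 18 of 40 tested members rose, 15 fell and 7 did not pass the test (edgeR's quasi-likelihood test, called where the Benjamini-Hochberg adjusted p over the whole table was below 0.05). The background was high: 44.3% of all tested genes were called, 21.8% higher and 22.5% lower. In Ver 18 members rose, 14 fell and 8 did not pass, beside 44.1% of all tested genes, 21.2% higher and 22.9% lower. The members are abundant transcripts, with a median of 15025 counts over the 16 libraries against 1275 for all genes tested, so their share of calls is not read as particular to them. Here and below, bulk RNA cannot tell fewer cells of a kind from less RNA per cell.

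The median log2 change of the members was 0.07 in Vc and 0.02 in Ver, beside -0.04 for all genes in each line. Changes of at least 2-fold with a call were 8 higher and 3 lower in Vc, where 7.13% and 10.7% of all genes met that rule. In Ver they were 6 higher and 4 lower, beside 6.38% and 10.9%. The 2 DHT comparisons share no library. Of the members that rose, 17 did so in both lines, 94.44% of each line's 18. Over all genes tested, 3915 were called higher in both, 79.62% of the Vc list and 82.04% of the Ver list. Of the members that fell, 11 did so in both, 73.33% of the Vc list and 78.57% of the Ver list, beside 3825 of all genes (75.44% and 74.07%). No member was called in opposite directions. SLC2A3 and SLC2A5 are counted among the 18 risers of each line, the 17 shared and the 2-fold risers of each line. They passed the filter on low counts through groups with DHT, so their part in these counts is no support. Where they are called in later comparisons with DHT, the same holds.

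**Figure D1:**
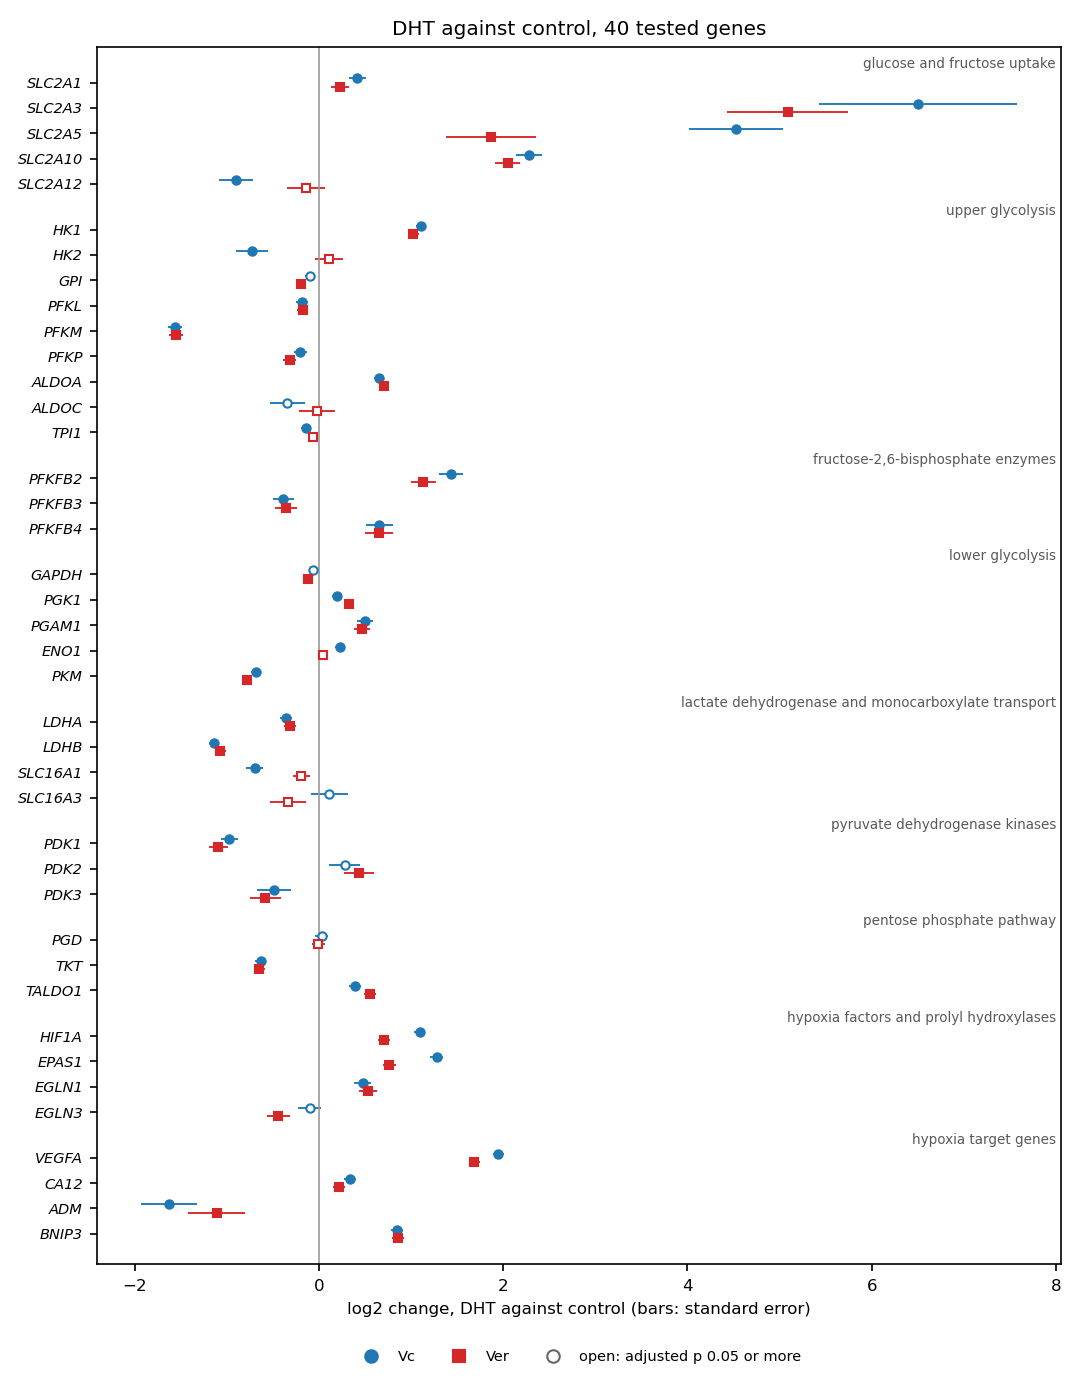
Log2 change with DHT against control for the 40 tested members, grouped by role, in Vc (blue circles) and Ver (red squares), with 1 SE from the edgeR fit; open symbols did not pass an adjusted p of 0.05. Transporters and hypoxia genes lie mostly right of 0, with VEGFA at 1.95 and 1.68, while PFKM, LDHB and PDK1 lie left of it in both lines.

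Scaling by total counts in place of TMM moved the median log2 change of all genes to -0.21 in Vc and -0.23 in Ver for DHT, and to -0.11 in Vc for DHT with enzalutamide against control. Under that scaling the rises of PGK1 and ENO1 in Vc (log2 change 0.02 and 0.05) and of SLC2A1, CA12 and PDK2 in Ver (0.04, 0.03 and 0.24) were no longer called. Calls of lower were gained by GPI, ALDOC and GAPDH in Vc (-0.27, -0.52 and -0.24) and by TPI1, SLC16A1, SLC16A3 and PGD in Ver (-0.25, -0.38, -0.53 and -0.20). ENO1 in Ver turned from 0.04 to -0.15 and was then called lower (adjusted p = 0.007488). The members then stood at 16 higher and 18 lower in Vc and 15 higher and 19 lower in Ver, and all genes at 3575 higher and 6814 lower in Vc and 3300 higher and 7021 lower in Ver. Changes are therefore given relative to the TMM scale.

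In Vc 4 of 5 transporter genes were called higher and 1 lower, beside 21.8% and 22.5% of all genes tested. In Ver 4 were called higher and 1 was not called, beside 21.2% of all genes higher and 22.9% lower. SLC2A3 and SLC2A5 are among the 4, were below 1 CPM in every control library and passed the filter on low counts through groups with DHT, so their calls are no support beside those of the other 3 genes. The summed level of the 5 genes was 63.3 ± 3.37 CPM in Vc control and 124 ± 3.04 CPM with DHT, and 66.8 ± 1.78 and 124 ± 1.15 CPM in Ver (mean ± SD, n = 2). This sum includes SLC2A3 and SLC2A5, so its rise is partly theirs and is a description only.

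SLC2A3 encodes GLUT3, a high-affinity glucose transporter (chr12:7919230-7936275, minus strand). Its level was 0.154 and 0 CPM in the Vc control libraries, 8.54 and 8.13 CPM with DHT, 0 and 0 CPM with enzalutamide, and 2.49 and 2.73 CPM with both. In Ver it was 0.194 and 0.358 CPM in control, 9.54 and 10.2 CPM with DHT, 0 and 0.0908 CPM with enzalutamide, and 0.838 and 1.79 CPM with both. It was close to absent without DHT and present in every DHT library. SLC2A3 passed the filter on low counts through groups with DHT, so its levels and ratios are a description and no support. Because the controls hold only 2 counts in Vc and 6 in Ver, against 184 and 217 with DHT, the change is given as a ratio with an exact 95% interval that covers counting error only. The ratio was 103 in Vc (28.2 to 861) and 35.2 in Ver (15.9 to 97.1). SLC2A3 has 3 annotated pseudogenes with similar sequence, whose counts summed to 447 over all libraries against 497 for the gene. Their summed level was 2.85 ± 0.544 CPM in Vc control and 2.39 ± 0.219 CPM with DHT, and 3.14 ± 0.640 and 1.42 ± 0.868 CPM in Ver, so it did not go up with the gene. Reads shared with them cannot be assigned with certainty.

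SLC2A10 encodes GLUT10, a facilitative transporter of the endomembranes (chr20:46709487-46736347, plus strand). It stood at 9.93 and 9.26 CPM in Vc control and 45.7 and 47.9 CPM with DHT, and at 15.0 and 10.0 CPM and then 52.1 and 51.2 CPM in Ver. Every DHT library was above every control library in both lines. In Vc it rose by 2.28 ± 0.139 on the log2 scale (SE from the fit, adjusted p = 1.816e-34), and in Ver by 2.05 ± 0.135 (4.622e-31). Per kilobase of exon, SLC2A10 made up 14.3 ± 1.5% of the 5 transporters' level in Vc control and 37.9 ± 0.260% with DHT, while SLC2A1 went from 58.3 ± 0.155% to 42.4 ± 1.12%. In Ver the SLC2A10 share was 17.8 ± 4.62% in control and 41.0 ± 0.832% with DHT.

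SLC2A5 encodes the fructose transporter GLUT5 (chr1:9035107-9088478, minus strand). It was at 0.385 and 0.510 CPM in Vc control and 10.4 and 10.6 CPM with DHT, but at 0.776 and 0.626 CPM in Ver control and only 2.32 and 2.86 CPM with DHT. With DHT its level was higher in Vc than in Ver. SLC2A5 passed the filter on low counts through groups with DHT, so its levels and ratios are a description and no support. The counted ratio of DHT to control was 23.6 (12.95 to 48.0) in Vc and 3.70 (2.07 to 7.04) in Ver, and the DHT level in Ver was 0.246 of that in Vc (0.181 to 0.331). SLC2A1, the basal glucose transporter GLUT1, rose in Vc from 35.6 and 38.4 CPM to 47.7 and 51.3 CPM, by 0.42 ± 0.0959 (adjusted p = 9.741e-05). In Ver its levels were 43.7 and 46.4 CPM and then 52.6 and 53.1 CPM. That log2 change of 0.23 ± 0.0948 (adjusted p = 0.04045) was lost without any 1 of the 4 Ver libraries involved, with adjusted p of 0.191 and 0.0573 without control replicates 1 and 2, and 0.098 and 0.123 without DHT replicates 1 and 2.

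SLC2A12, which encodes GLUT12, went the other way in Vc. It was at 14.8 and 17.5 CPM in Vc control and 9.2 and 8.03 CPM with DHT, a fall of log2 change -0.90 ± 0.184 (adjusted p = 1.138e-05). TBPL1 on the opposite strand overlaps 38.85% of its exon length, where unstranded reads cannot be assigned with certainty. In Ver it was already low, at 8.34 and 8.14 CPM in control and 7.04 and 7.94 CPM with DHT (adjusted p = 0.6313). The difference between the lines' responses, 0.76 ± 0.276, did not pass (adjusted p = 0.1462).

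**Figure D2:**
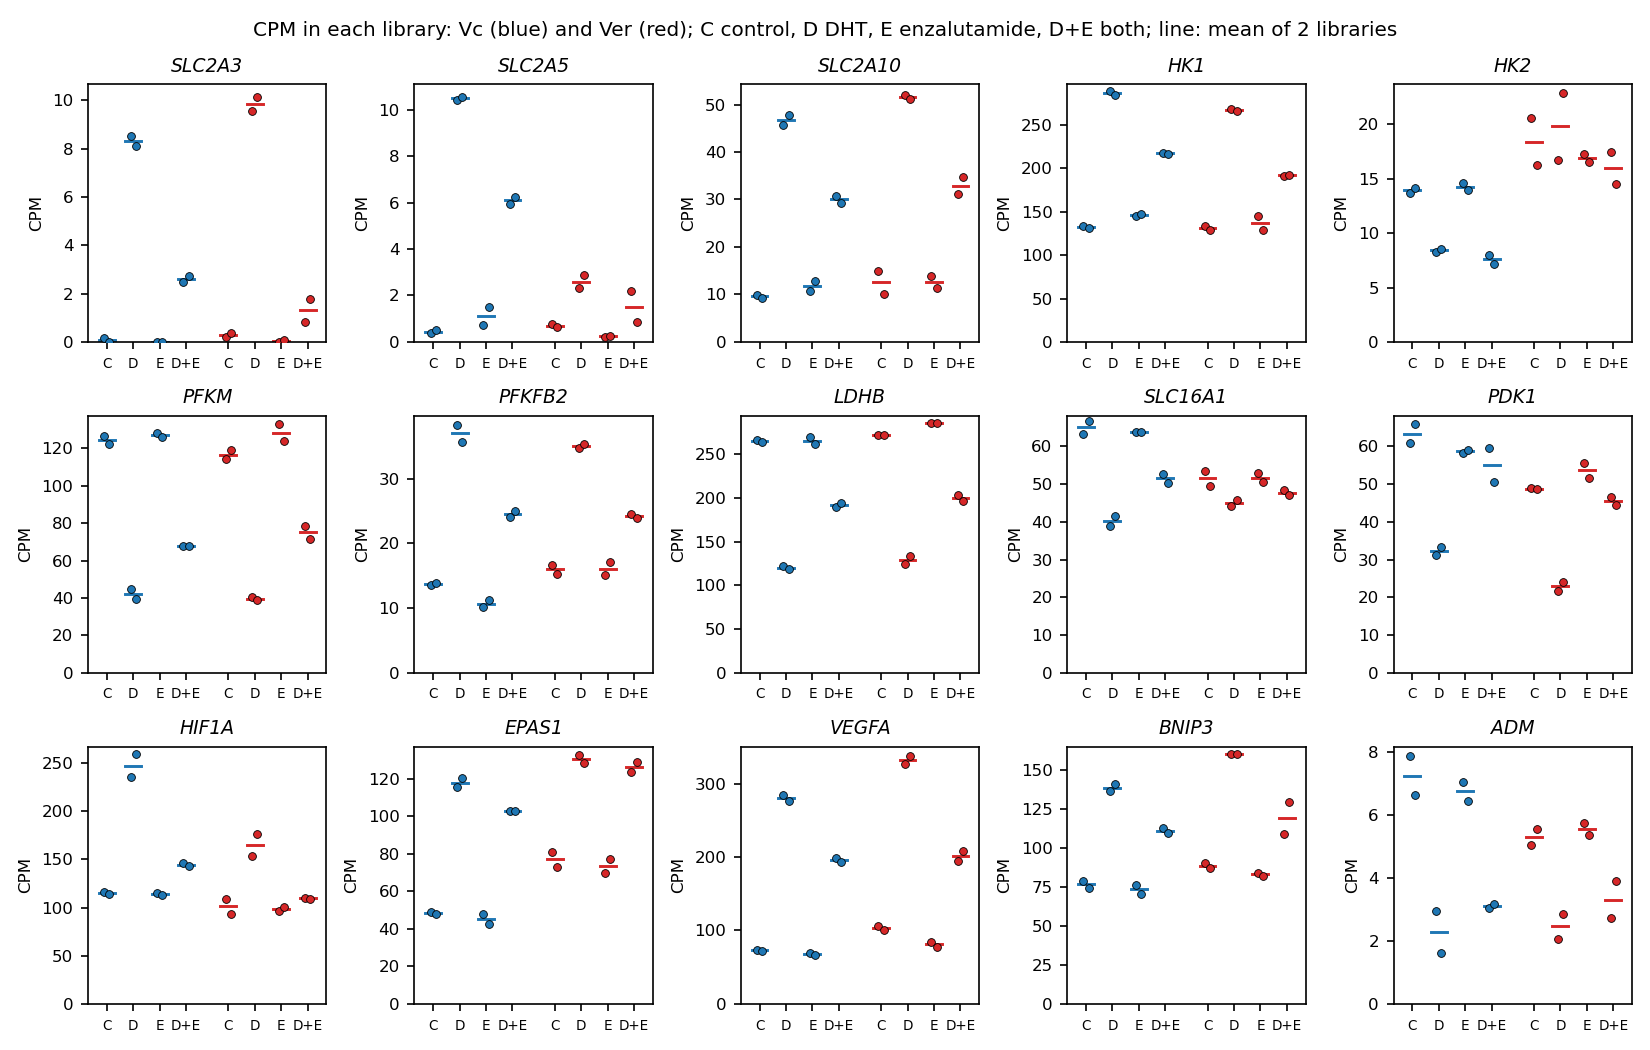
CPM in each library for 15 members, by treatment (C control, D DHT, E enzalutamide, D+E both) in Vc and Ver; each point is 1 library and each line the mean of 2. SLC2A3, SLC2A10, HK1, PFKFB2 and VEGFA are high in both DHT libraries of each line, PFKM, LDHB and PDK1 are low there, and the enzalutamide libraries sit near the controls.

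Among the upper glycolytic enzymes the isoenzymes of a step moved in different directions. HK1, the broadly expressed hexokinase (chr10:69269984-69401884, plus strand), was at 134 and 132 CPM in Vc control and 289 and 285 CPM with DHT. Ver had 134 and 129 CPM and 269 and 266 CPM. The groups did not overlap in either line, with log2 changes of 1.11 ± 0.0561 (adjusted p = 3.324e-41) and 1.03 ± 0.0569 (3.88e-37). HK2, the inducible hexokinase often raised in tumours (chr2:74833981-74893359, plus strand), fell in Vc from 13.7 and 14.2 CPM to 8.29 and 8.54 CPM, by a log2 change of -0.73 ± 0.173 (adjusted p = 1.518e-04). In Ver HK2 stood at 20.6 and 16.3 CPM in control and 16.8 and 22.9 CPM with DHT, where the groups overlap (log2 change 0.11, adjusted p = 0.6133). Per kilobase, HK2 made up 9.83 ± 0.337% of the 2 hexokinases in Vc control and 2.96 ± 0.0859% with DHT, and 12.7 ± 1.56% and 7.14 ± 1.48% in Ver.

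PFKM, the muscle-type phosphofructokinase (chr12:48105139-48146404, plus strand), fell in both lines. It was at 127 and 122 CPM in Vc control and 44.8 and 39.4 CPM with DHT, and at 114 and 119 CPM and 40.6 and 38.8 CPM in Ver. All DHT libraries were far below all controls. Log2 changes came to -1.56 ± 0.0747 (adjusted p = 2.706e-44) in Vc and -1.55 ± 0.0763 (4.04e-43) in Ver. The liver and platelet types, PFKL and PFKP, moved less, with log2 changes of -0.18 and -0.20 in Vc and -0.17 and -0.32 in Ver. PFKP in Ver was called lower, from 85.6 and 92.0 CPM in control to 71.3 and 71.2 CPM with DHT. Per kilobase, the share of PFKM in the 3 phosphofructokinases was 32.1 ± 1.54% in Vc control and 15.4 ± 1.77% with DHT, and 29.5 ± 0.700% and 14.4 ± 0.505% in Ver. The calls on PFKL in both lines and on PFKP in Vc were lost when single libraries were left out. PFKL in Vc had an adjusted p of 0.269 without control replicate 2 and 0.308 without DHT replicate 1, and in Ver 0.352 without control replicate 2 and 0.0958 without DHT replicate 1. PFKP in Vc had 0.137 without control replicate 2, 0.119 without DHT replicate 1 and 0.0513 without DHT replicate 2.

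ALDOA, the main aldolase, rose in both lines. It was at 223 and 221 CPM in Vc control and 347 and 351 CPM with DHT, and at 236 and 235 CPM and 393 and 375 CPM in Ver, with no overlap. Its log2 changes were 0.65 ± 0.0524 (adjusted p = 2.39e-23) and 0.71 ± 0.0524 (5.809e-26), but 53.5% of its exon length overlaps other annotated genes, and reads there cannot be assigned with certainty. ALDOC, the brain-type aldolase, did not pass in either line. GPI, which converts glucose-6-phosphate to fructose-6-phosphate, had a log2 change of -0.10 in Vc (adjusted p = 0.1292) and fell by 0.20 on the log2 scale in Ver (7.714e-04). The call on TPI1, triose phosphate isomerase, in Vc (-0.14, adjusted p = 0.03699) was lost without control replicate 1 (0.31), control replicate 2 (0.0513) or DHT replicate 1 (0.592).

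The enzymes of fructose-2,6-bisphosphate shifted in composition. PFKFB2, a form found in heart and an androgen-responsive gene in prostate cells (chr1:207034366-207081024, plus strand), was at 13.6 and 13.9 CPM in Vc control and 38.3 and 35.7 CPM with DHT. Ver had 16.7 and 15.3 CPM and 34.8 and 35.3 CPM, so control and DHT libraries were apart in both lines. PFKFB2 rose by 1.43 ± 0.132 on the log2 scale (adjusted p = 1.588e-19) and 1.13 ± 0.132 (9.834e-14). PFKFB4 rose by 0.66 ± 0.146 and 0.65 ± 0.150. PFKFB3, the form with the strongest kinase bias, fell by 0.39 in Vc (adjusted p = 0.00248) and by 0.36 in Ver (0.01044), the latter lost without Ver control replicate 1 (0.106) or Ver DHT replicate 2 (0.22). Per kilobase the share of PFKFB3 was 62.3 ± 2.17% in Vc control and 38.8 ± 0.660% with DHT, and that of PFKFB2 13.7 ± 0.670% and 30.1 ± 0.486%. In Ver PFKFB3 held 54.5 ± 2.22% and 33.8 ± 3.32%, and PFKFB2 18.5 ± 0.548% and 32.3 ± 1.21%.

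The lower glycolytic enzymes include GAPDH, ENO1 and PKM, the members with the most counts. PKM, which makes pyruvate (both its splice forms counted together), fell from 453 and 443 CPM to 280 and 279 CPM in Vc and from 394 and 409 CPM to 244 and 224 CPM in Ver. The groups did not overlap, and the log2 changes were -0.68 ± 0.0518 (adjusted p = 3.388e-25) and -0.78 ± 0.0525 (2.604e-29). PGAM1, phosphoglycerate mutase, rose by 0.50 ± 0.0831 in Vc and 0.47 ± 0.0854 in Ver (adjusted p = 7.715e-08 and 1.136e-06). Counts on its 13 pseudogenes equalled 13.881% of its own.

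PGK1, phosphoglycerate kinase, was at 203 and 197 CPM in Vc control and 235 and 222 CPM with DHT, and at 206 and 211 CPM and 259 and 264 CPM in Ver. The log2 change was 0.19 (adjusted p = 0.001779) in Vc, lost without Vc DHT replicate 1 (0.0843), and 0.33 (1.043e-07) in Ver. ENO1, the main enolase, rose in Vc from 599 and 593 CPM to 695 and 698 CPM by 0.22 ± 0.0486 (adjusted p = 3.655e-05). In Ver it was at 542 and 567 CPM in control and 581 and 559 CPM with DHT, which overlap. GAPDH, often used as a reference gene, has 62 annotated pseudogenes, and reads shared with them cannot be assigned with certainty. Their summed level was 27.2 ± 1.48 CPM in Vc control and 39.4 ± 4.89 CPM with DHT. In Ver it was 31.1 ± 2.50 CPM in control and 43.2 ± 0.944 CPM with DHT. GAPDH itself had a log2 change of -0.07 in Vc (adjusted p = 0.285) and -0.12 in Ver (0.02956). The Ver call was lost without control replicate 2 (0.331), DHT replicate 1 (0.0841) or DHT replicate 2 (0.132). Summed over the 14 upper and lower enzymes, the level was 3116 ± 12.0 CPM in Vc control and 3196 ± 1.09 CPM with DHT, and 3322 ± 100.2 and 3301 ± 41.0 CPM in Ver, so the summed level moved far less than its parts.

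None of the 4 lactate members of the set was called higher with DHT in either line. In Vc 3 of 4 fell and 1 did not pass, beside 22.5% of all genes tested called lower and 21.8% higher. In Ver 2 fell and 2 did not pass, beside 22.9% lower and 21.2% higher. LDHB, the subunit that favours lactate oxidation (chr12:21635342-21757857, minus strand), was at 266 and 264 CPM in Vc control and 122 and 118 CPM with DHT. Ver had 272 and 272 CPM in control and 125 and 134 CPM with DHT, far below the controls as in Vc. LDHB changed on the log2 scale by -1.14 ± 0.0561 (adjusted p = 1.595e-42) and -1.07 ± 0.0559 (1.085e-39). Overlap with another gene on its strand covers 33.42% of the exon length.

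LDHA, the subunit that favours lactate production, fell less, from 135 and 128 CPM to 105 and 100 CPM in Vc and from 136 and 139 CPM to 112 and 108 CPM in Ver. Its log2 changes were -0.36 ± 0.0646 (adjusted p = 8.123e-07) and -0.31 (1.386e-05). LDHB thus remained the larger part per kilobase, at 80.8 ± 0.464% in Vc control and 70.9 ± 0.186% with DHT, and 80.5 ± 0.270% and 70.9 ± 1.59% in Ver. SLC16A1, the lactate carrier MCT1, fell in Vc from 63.3 and 66.7 CPM to 38.8 and 41.5 CPM, by 0.70 on the log2 scale (adjusted p = 5.562e-12). In Ver it was at 53.3 and 49.6 CPM in control and 44.1 and 45.9 CPM with DHT (log2 change -0.19, adjusted p = 0.07331). SLC16A3, the export carrier MCT4, lay between 7.38 and 12.3 CPM in all 16 libraries and passed in neither line.

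Of the pyruvate dehydrogenase kinases, PDK1 is a hypoxia-inducible form (chr2:172555373-172608669, plus strand). It was at 60.7 and 65.9 CPM in Vc control and 31.3 and 33.3 CPM with DHT, and at 48.9 and 48.6 CPM and 21.6 and 24.2 CPM in Ver. No control library reached down to a DHT library. The log2 change was -0.97 ± 0.0953 (adjusted p = 8.897e-18) and -1.09 ± 0.103 (9.313e-19). PDK3 fell by 0.49 in Vc (adjusted p = 0.02142) and 0.58 in Ver (0.002349). The Vc call was lost without control replicate 1 (0.161) or DHT replicate 1 (0.289), and the Ver call without control replicate 1 (0.103). PDK2 was called higher in Ver (0.43, adjusted p = 0.02293), which was lost without control replicate 1 (0.0827), control replicate 2 (0.0816) or DHT replicate 1 (0.153). SAMD14 on the opposite strand overlaps 38.55% of the exon length of PDK2, and reads there cannot be assigned with certainty. Per kilobase, the share of PDK1 went from 49.4 ± 0.651% to 35.2 ± 1.30% in Vc and from 34.8 ± 1.54% to 21.0 ± 2.48% in Ver, while that of PDK2 went from 22.2 ± 5.91% to 37.8 ± 0.0711% and from 27.3 ± 1.56% to 47.0 ± 1.52%.

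**Figure D3:**
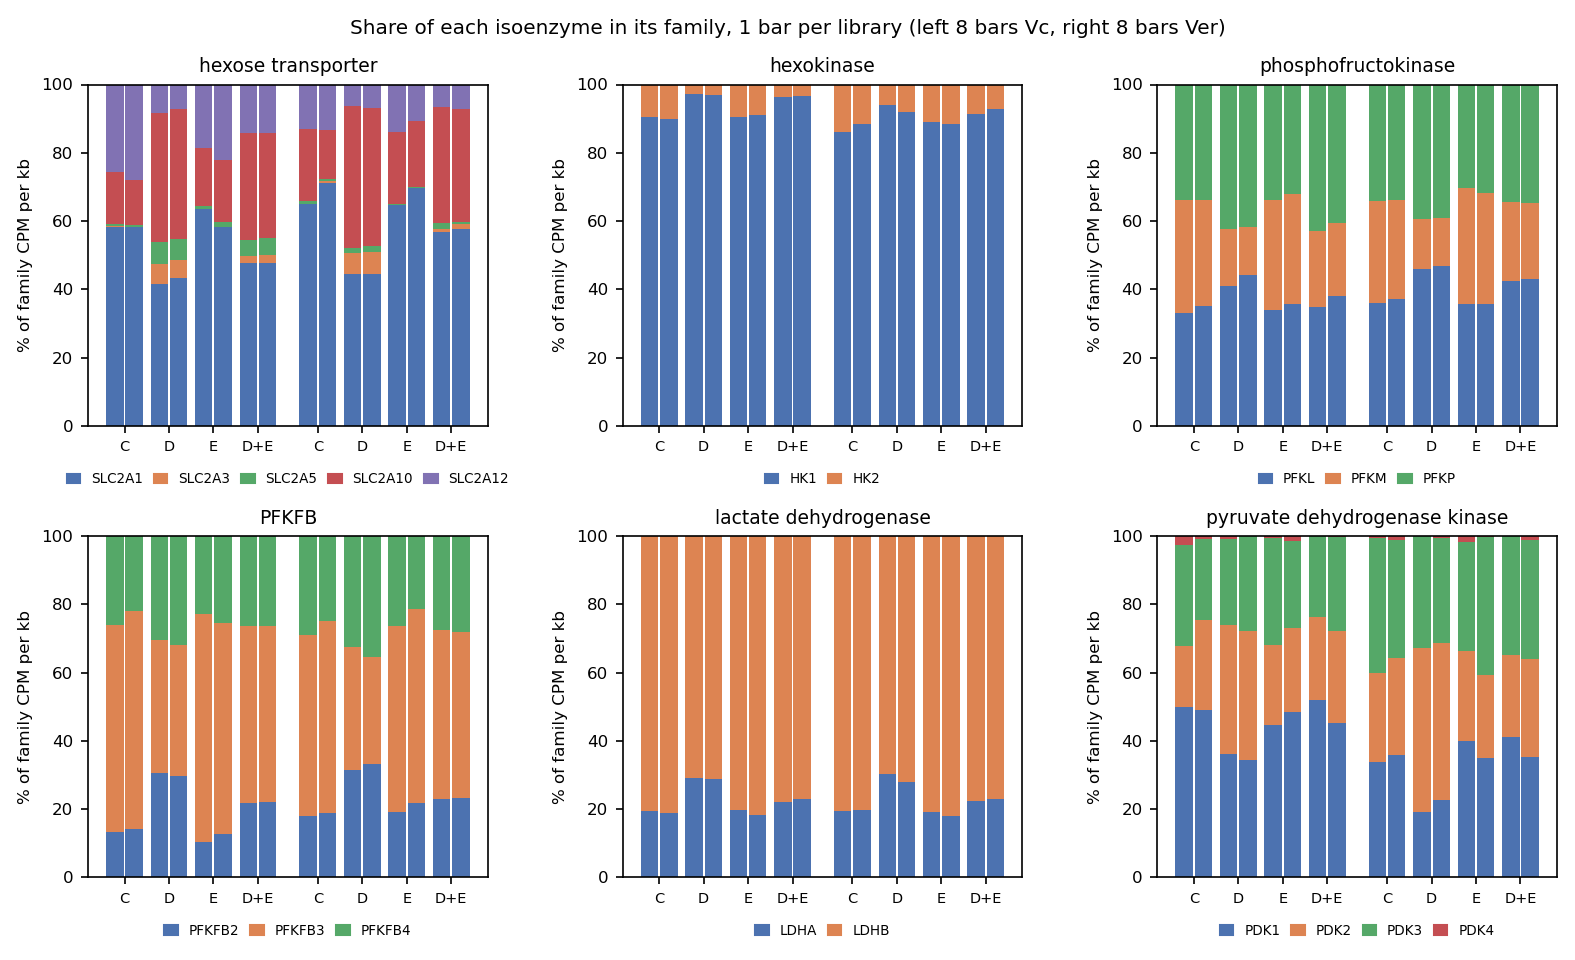
Share of each isoenzyme in its family (percent of summed CPM per kilobase of exon), 1 stacked bar per library, for 6 families. With DHT, HK2, PFKM, PFKFB3, LDHB and PDK1 take a smaller part in both lines, such as PFKM from 32.1 to 15.4% in Vc and from 29.5 to 14.4% in Ver.

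The 3 pentose phosphate members differed from each other. TKT, the transketolase of the non-oxidative branch, was at 188 and 195 CPM in Vc control and 122 and 125 CPM with DHT, and at 184 and 210 CPM and 130 and 121 CPM in Ver. DHT libraries were lower in both lines, with log2 changes of -0.63 ± 0.0599 (adjusted p = 1.34e-18) and -0.65 ± 0.0601 (5.41e-19). TALDO1, the transaldolase of the same branch, rose from 73.5 and 86.1 CPM to 106 and 103 CPM in Vc and from 96.1 and 101 CPM to 145 and 144 CPM in Ver, by 0.39 (adjusted p = 3.452e-07) and 0.55 (5.827e-13). PGD, of the oxidative branch, had log2 changes of 0.03 and -0.01 with overlapping groups.

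The hypoxia factors HIF1A and EPAS1 rose with DHT in both lines, and a part of oxygen level in this was not tested. HIF1A (chr14:61695513-61748259, plus strand) was at 117 and 115 CPM in Vc control and 235 and 259 CPM with DHT, and at 109 and 93.8 CPM and 154 and 177 CPM in Ver. Control and DHT libraries did not overlap, and the DHT libraries of Ver were below those of Vc. HIF1A rose on the log2 scale by 1.09 ± 0.0619 (adjusted p = 4.383e-36) and, in Ver, by 0.70 ± 0.0645 (2.706e-19). EPAS1, which encodes HIF2 alpha (chr2:46293667-46386703, plus strand), was at 49.0 and 48.2 CPM in Vc control and 116 and 120 CPM with DHT, and at 81.1 and 73.2 CPM and 133 and 129 CPM in Ver. Its log2 change was 1.28 ± 0.0729 (adjusted p = 3.413e-36) and 0.76 ± 0.0697 (1.729e-19). The Ver controls were above the Vc controls while the DHT levels were closer.

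EGLN1, the main prolyl hydroxylase, rose in both lines, by 0.47 ± 0.0947 (adjusted p = 7.545e-06) and 0.53 ± 0.0984 (1.406e-06). EGLN3, a hydroxylase that is itself hypoxia-inducible, had a log2 change of -0.10 in Vc (adjusted p = 0.5437). It was called lower in Ver, -0.44 (0.002065), which was lost without Ver control replicate 1 (0.184) or Ver DHT replicate 2 (0.205).

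The hypoxia targets did not move as one. VEGFA, the angiogenic growth factor (chr6:43770184-43786487, plus strand), was at 73.1 and 72.6 CPM in Vc control and 285 and 277 CPM with DHT, and at 106 and 100.3 CPM and 327 and 337 CPM in Ver. All DHT libraries were far above all controls. The log2 change was 1.95 ± 0.0605 (adjusted p = 2.491e-65) and 1.68 ± 0.0588 (4.386e-59). BNIP3, a mitophagy receptor, rose from 79.1 and 74.7 CPM to 136 and 141 CPM in Vc and from 90.3 and 86.9 CPM to 161 and 160 CPM in Ver. Its log2 changes were 0.85 ± 0.0674 (adjusted p = 8.192e-24) and 0.86 ± 0.0668 (2.255e-24). Counts on its 39 annotated pseudogenes equalled 24.113% of its own, and their summed level was 26.8 ± 2.66 CPM in Vc control and 23.4 ± 3.88 CPM with DHT, and 27.1 ± 0.0989 and 19.7 ± 0.999 CPM in Ver.

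ADM, the vasodilator peptide adrenomedullin, fell. It was at 7.85 and 6.63 CPM in Vc control and 2.96 and 1.63 CPM with DHT, and at 5.04 and 5.55 CPM and 2.05 and 2.86 CPM in Ver. The groups did not overlap, and the log2 changes were -1.63 ± 0.301 (adjusted p = 5.98e-07) and -1.11 ± 0.309 (0.001254). CA12, a membrane carbonic anhydrase, rose by 0.34 in Vc and 0.22 in Ver (adjusted p = 9.459e-07 and 0.002773). CA9, its relative, was close to 0. LDHA, PDK1 and ADM, all known HIF targets, fell in the same libraries in which HIF1A, EPAS1, VEGFA and BNIP3 rose. ALDOA, PGK1 and EGLN1 were called higher there too, the PGK1 call in Vc being lost without Vc DHT replicate 1. A link of these changes to HIF was not tested.

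Other genes of the same pathways were taken from 5 lists that hold no member, and their counts stand beside the background of 21.8% of all genes higher and 22.5% lower in Vc, and 21.2% and 22.9% in Ver. In Vc with DHT, 2 of 16 tested genes of glycolytic isoenzymes and side branches rose and 6 fell, and in Ver 2 rose and 7 fell. The Vc fall of LDHC did not pass in DESeq2 (adjusted p = 0.0678). Of 11 genes of pyruvate entry into mitochondria 7 rose and 2 fell in Vc, and 6 rose and 3 fell in Ver. Of 24 genes of hypoxia signalling 12 rose and 4 fell in Vc, and 12 rose and 5 fell in Ver. Among 8 other hexose and lactate transporters 2 rose and 2 fell in Vc, and 1 rose and 3 fell in Ver. The Ver falls of SLC2A13 and SLC2A11 did not pass in DESeq2 (adjusted p = 0.05607 and 0.1099). SLC16A8, a lactate transporter gene of that list, was at 12.4 and 15.3 CPM in Vc control and 28.4 and 25.1 CPM with DHT. In Ver SLC16A8 was at 12.5 and 12.8 CPM in control and 22.1 and 24.4 CPM with DHT. Of 9 other pentose and ribose phosphate genes, 0 rose and 0 fell in Vc, and 1 rose and 1 fell in Ver. The rise, of PRPS2, was no longer called under scaling by total counts (log2 change 0.19). The fall, of PGLS, was no longer called without Ver DHT replicate 2 (-0.27).

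PCK2, the mitochondrial phosphoenolpyruvate carboxykinase, was at 35.0 and 31.1 CPM in Vc control and 179 and 188 CPM with DHT, and at 38.2 and 37.6 CPM and 163 and 160 CPM in Ver. It rose by 2.47 ± 0.0769 and 2.09 ± 0.0773. ENO2, the neuronal enolase, fell by 2.07 and 2.01 on the log2 scale. MPC2 and MPC1, the subunits of the mitochondrial pyruvate carrier, rose by 1.59 and 1.15 in Vc and by 1.41 and 0.77 in Ver. In the hypoxia list LOX, a collagen cross-linking oxidase, rose by 2.97 and 3.85, and DDIT4, an mTORC1 inhibitor, by 2.0 and 2.18. MXI1, a MYC antagonist that HIF can induce, fell by 2.85 in Vc and 3.27 in Ver.

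The response to DHT differed between the 2 lines in 5 members when the difference itself was tested, 2 higher and 3 lower in Ver minus Vc, where 2.32% of all tested genes were called (0.891% higher, 1.43% lower). The difference was -2.65 ± 0.708 for SLC2A5 (adjusted p = 0.01585), -0.39 ± 0.0894 for HIF1A (0.002619) and -0.51 ± 0.101 for EPAS1 (2.077e-04), so these rose less in Ver. It was 0.84 ± 0.230 for HK2 (0.02274) and 0.51 ± 0.126 for SLC16A1 (0.008348), which were called lower in Vc and not called in Ver. SLC2A5 had only 11 counts in Vc control and 15 in Ver control. It passed the filter on low counts through groups with DHT, so its call is no support beside the others. EPAS1 alone of the 5 kept its call in every alternative tried. SLC2A5 lost it without Vc control replicate 1 (0.1002), Ver control replicate 1 (0.1389) or Ver control replicate 2 (0.07104), and HIF1A without Vc DHT replicate 2 (0.08989), Ver control replicate 1 (0.1482) or Ver DHT replicate 1 (0.08554). SLC16A1 lost it without Vc control replicate 2 (0.06794), Vc DHT replicate 1 (0.09489), Ver control replicate 2 (0.0991) or Ver DHT replicate 2 (0.05872). When single libraries were left out, HK2 kept it without Ver control replicate 1 (0.01063) or Ver DHT replicate 1 (0.003931), and lost it without each of the other 6 libraries, at adjusted p of 0.06545 to 0.3292. VEGFA had a difference of -0.26 ± 0.0844 that did not pass (adjusted p = 0.07863).

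Enzalutamide alone, in hormone-deprived medium, left most of these genes close to control. In Vc 0 of 40 members were called by edgeR or by DESeq2, with 6 at an unadjusted p under 0.05, beside 0.537% of all genes called. In Ver 1 member was called, where 1.13% of all genes were (0.47% higher, 0.661% lower). This was VEGFA, at 106 and 100.3 CPM in control and 84.3 and 78.2 CPM with the drug. The groups did not overlap and the log2 change was -0.35 ± 0.0649 (adjusted p = 1.293e-04), lost without Ver enzalutamide replicate 2 (0.055). In Vc the same change was -0.10 ± 0.0661 (adjusted p = 0.7448). The difference between the lines was called by edgeR in 0 of 40 members (3 at an unadjusted p under 0.05, 0 by DESeq2), beside 0.0222% of all genes.

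Added to DHT, enzalutamide changed members in both directions. In Vc 8 members were higher and 14 lower with both compounds than with DHT alone, where 22.4% of all genes were called (11.5% higher, 11% lower). In Ver 9 were higher and 13 lower, beside 26.9% (13.7% higher, 13.2% lower). Scaled by total counts, the members split into 12 higher and 11 lower in Vc and 12 higher and 9 lower in Ver, and all genes into 3290 higher and 1806 lower, and 4126 higher and 2104 lower. Both comparisons contain the DHT libraries that also enter the DHT comparison, so their values are set side by side and no link between them is tested.

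VEGFA with both compounds was at 199 and 194 CPM in Vc and 195 and 208 CPM in Ver. These libraries lay between control and DHT alone in both lines. Against DHT the log2 change was -0.52 ± 0.0560 (adjusted p = 1.925e-14) in Vc and -0.72 ± 0.0563 (1.561e-23) in Ver, and against control 1.43 ± 0.0611 and 0.96 ± 0.0604. HIF1A was at 146 and 143 CPM in Vc and 110 and 109 CPM in Ver with both compounds, against DHT -0.77 ± 0.0611 (8.783e-23) and -0.59 ± 0.0648 (2.166e-14). It remained above control in Vc by 0.32 ± 0.0633 (adjusted p = 9.95e-06) and overlapped control in Ver (0.11, adjusted p = 0.2593).

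EPAS1 stayed high. With both compounds it was at 103 and 103 CPM in Vc and 123 and 129 CPM in Ver, against 116 and 120 CPM and 133 and 129 CPM with DHT alone. The log2 change against DHT was -0.20 ± 0.0678 in Vc (adjusted p = 0.02157) and -0.05 in Ver, where it did not pass. The Vc call was lost without Vc DHT replicate 1 (0.0554), Vc DHT replicate 2 (0.196), or replicate 1 (0.108) or 2 (0.111) with both compounds. Against control EPAS1 was higher by 1.08 ± 0.0731 (adjusted p = 6.755e-29) and 0.71 ± 0.0705 (1.018e-16).

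PDK1 was near its control level with both compounds. It was at 59.5 and 50.5 CPM in Vc and 46.7 and 44.4 CPM in Ver, up from DHT alone by 0.77 ± 0.0964 (adjusted p = 1.235e-11) and 0.99 ± 0.105 (2.14e-15). Against control it did not pass in either line (-0.20 and -0.10, adjusted p = 0.07854 and 0.5449). LDHB was at 189 and 194 CPM in Vc and 203 and 197 CPM in Ver, up by 0.67 ± 0.0569 and 0.63 ± 0.0571, and still below control by 0.47 and 0.44 on the log2 scale. PFKM was at 67.6 and 68.0 CPM in Vc and 78.7 and 71.7 CPM in Ver, up by 0.68 ± 0.0780 and 0.92 ± 0.0795 from DHT alone. PKM and TKT rose against DHT alone by 0.47 and 0.39 in Vc and by 0.61 and 0.58 in Ver.

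HK1 was at 218 and 217 CPM in Vc and 192 and 192 CPM in Ver with both compounds, between its control and DHT levels. It was lower than with DHT alone by 0.40 and 0.48 on the log2 scale, and above control by 0.71 ± 0.0566 and 0.55 ± 0.0583. SLC2A10 was at 30.8 and 29.2 CPM and 31.1 and 34.7 CPM, below DHT alone by 0.64 and 0.65. The SLC2A3 level with DHT alone was 3.21 times that with both in Vc (2.39 to 4.35) and 7.50 times in Ver (4.95 to 11.8). SLC2A3 passed the filter on low counts through groups with DHT, so these ratios are a description and no support. HK2, which fell with DHT in Vc, was at 8.03 and 7.14 CPM there with both compounds and so stayed at the DHT level (against control -0.88 ± 0.174, adjusted p = 1.005e-05).

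ENO1 was the only member whose response to enzalutamide on top of DHT differed between the lines by a test of the difference, 0.30 ± 0.0690 (Ver minus Vc, adjusted p = 0.006267), beside 1.29% of all genes (0.638% higher, 0.652% lower, or 184 genes higher and 106 lower when scaled by total counts). In Vc it fell from 695 and 698 CPM to 584 and 619 CPM, and in Ver it was at 581 and 559 CPM and 609 and 601 CPM. The call was lost without Vc replicate 1 with both compounds (0.1259), Ver DHT replicate 2 (0.06403) or Ver replicate 1 with both compounds (0.05049). Against control, DHT with enzalutamide left 12 members higher and 9 lower in Vc (28.5% of all genes called) and 12 higher and 6 lower in Ver (22.7%). By direction the background was 15.3% higher and 13.2% lower in Vc, and 12.4% higher and 10.3% lower in Ver. Scaled by total counts, 10 members were higher and 14 lower in Vc and 9 higher and 8 lower in Ver, and of all genes 2553 were higher and 4133 lower in Vc, and 1977 higher and 3427 lower in Ver.

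**Figure D4:**
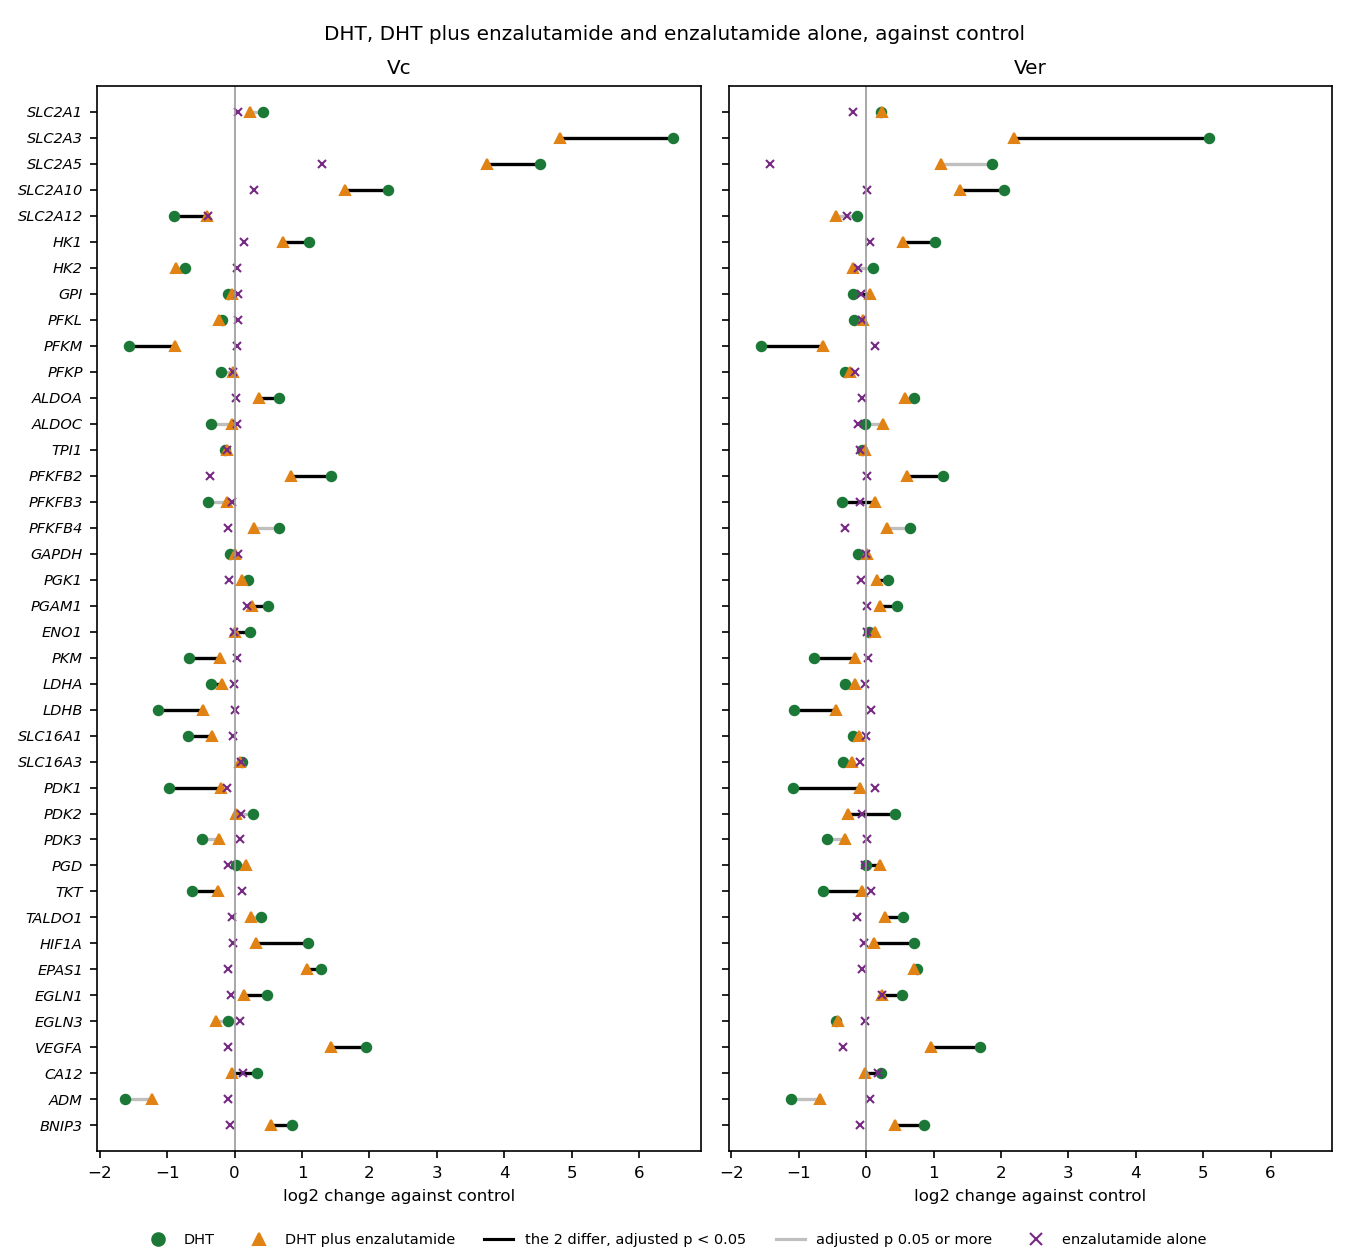
Log2 change against control in each line for DHT (green circles), DHT with enzalutamide (orange triangles) and enzalutamide alone (purple crosses); the line joining circle and triangle is black where DHT with enzalutamide differed from DHT alone at an adjusted p under 0.05 and grey otherwise. VEGFA in Vc lies at 1.95 with DHT and 1.43 with both compounds, EPAS1 keeps 1.08 of 1.28 in Vc and 0.71 of 0.76 in Ver, and the crosses sit near 0; SLC2A3 has no cross because its counts without DHT were near 0.

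In the other lists, NDRG1, a hypoxia- and androgen-regulated gene, was at 6733 and 6805 CPM with DHT in Vc and 3165 and 3408 CPM with both compounds, and at 5857 and 5845 CPM and 2334 and 2574 CPM in Ver. It fell by 1.04 and 1.25 on the log2 scale. LOX fell by 1.5 and 1.82, PCK2 by 0.58 and 0.74, and MPC2 by 0.28 and 0.52. FBP1, the gluconeogenic fructose-1,6-bisphosphatase, rose by 0.65 and 0.75.

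Without treatment, 8 members were higher and 7 lower in Ver than in Vc, and 25 did not pass, where 18.9% of all genes were called (9.13% higher, 9.73% lower). With total-count scaling the members split into 10 higher and 5 lower. GAPDH (chr12:6533927-6538374, plus strand) was at 542 and 555 CPM in Vc control and 751 and 794 CPM in Ver control, and TPI1 (chr12:6867119-6870948, plus strand) at 172 and 164 CPM and 220 and 242 CPM. The Ver libraries were above the Vc libraries for both. The log2 differences were 0.49 ± 0.0476 (adjusted p = 4.852e-17) and 0.46 ± 0.0567 (1.052e-11), and with DHT they were 0.44 and 0.54. The 2 genes lie on the same chromosome arm. Within 5 Mb of GAPDH 55 of 171 tested genes were higher in untreated Ver and 0 lower (32.164% higher), with a median log2 difference of 0.52, and within 5 Mb of TPI1 53 of 167 were higher. The part of this in the levels of GAPDH and TPI1 was not tested.

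PDK1 was lower in untreated Ver by 0.38 (adjusted p = 6.589e-04), and within 5 Mb of it 29 of 76 tested genes were lower (38.158%), with a median of -0.42, a part that was likewise not tested. LDHB, by contrast, had a log2 difference of 0.03 (adjusted p = 0.7448) although 12 of its 30 tested neighbours were higher, with a median of 0.65. EPAS1 was higher by 0.66 ± 0.0754 (2.291e-13) and VEGFA by 0.50 ± 0.0640 (4.056e-11). Near EPAS1 1 of 57 neighbours was higher and near VEGFA 5 of 105.

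SLC2A12 was lower in untreated Ver by 0.97 on the log2 scale (adjusted p = 1.145e-05), and CA12 by 0.31 (3.949e-05). Within 5 Mb of SLC2A12 12 of 47 neighbours were lower. The remaining untreated calls each rest on single libraries or settings. TALDO1 (0.31) was lost without Vc control replicate 1 (adjusted p = 0.129), and SLC16A1 (-0.34) and PFKFB3 (-0.41) without Ver control replicate 2 (0.0769 and 0.0943). HIF1A (-0.19) was lost without Vc control replicate 1 (0.167) or 2 (0.0878), or Ver control replicate 2 (0.663). For SLC2A1 (0.29) the adjusted p was 0.231 with Vc control replicate 1 left out and 0.188 with Ver control replicate 2 left out. For PDK3 (0.61) it was 0.0625 with Vc control replicate 2 left out and 0.138 with Ver control replicate 1 left out. PKM (-0.16) was lost without Vc control replicate 1 (0.145) or 2 (0.0567) or Ver control replicate 1 (0.171), and BNIP3 (0.20) when either Vc control replicate 2 (0.228) or the first Ver control (0.179) was left out.

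With DHT in both lines 9 members were higher and 8 lower in Ver, where 17.3% of all genes were called (7.9% higher, 9.37% lower). HK2 was higher by 1.24 ± 0.170 (adjusted p = 6.38e-10), its DHT libraries at 16.8 and 22.9 CPM in Ver against 8.29 and 8.54 CPM in Vc. SLC2A5 was lower by 2.02 ± 0.325 on the log2 scale (adjusted p = 1.113e-07). It passed the filter on low counts through groups with DHT, so that call is no support. HIF1A was lower by 0.58 (adjusted p = 7.029e-15), ENO1 by 0.29 (6.931e-07) and CA12 by 0.43 (6.075e-09), and TALDO1 was higher by 0.47 (2.328e-09). EPAS1 no longer passed (0.15, adjusted p = 0.1184), while VEGFA was still higher by 0.24 (3.282e-04).

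**Figure D5:**
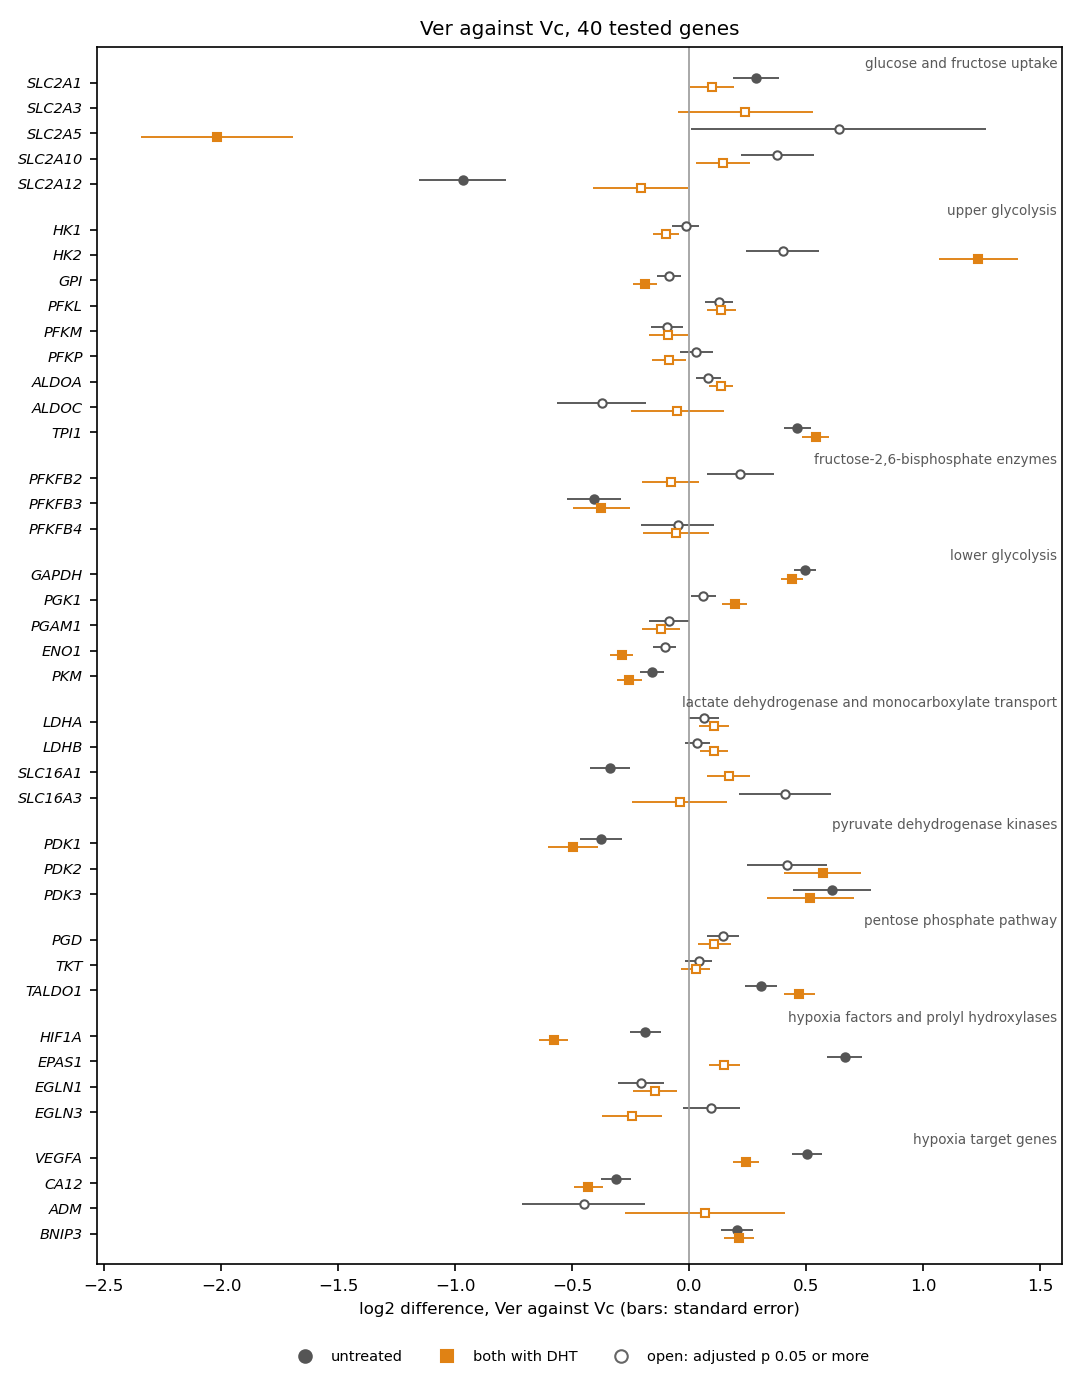
Log2 difference of Ver from Vc for the tested members without treatment (grey circles) and with DHT (orange squares), with 1 SE from the edgeR fit; the untreated point of SLC2A3 is left out because its counts were near 0. GAPDH and TPI1 are right of 0 in both, EPAS1 moves from 0.66 to 0.15, HK2 from 0.40 to 1.24 and SLC2A5 from 0.64 to -2.02.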

How the data were processed

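The authors deposited a file of read counts per gene for each of the 16 libraries, and 1 table of normalized signal. That deposited signal was checked to be the count over a DESeq2 size factor, and only its gene names served here. Per the submitters' processing notes, FastQC 0.11.7, Trimmomatic 0.36-5, HISAT2, SAMtools and HTSeq 0.11.1 were used with GRCh38. Counting was unstranded in union mode per the file names, so reads of antisense and overlapping genes cannot be told apart.

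The count test was edgeR 4.0.16 (R 4.3.3, filterByExpr by group, TMM scaling, robust quasi-likelihood fit over all 16 libraries and 8 groups, 22553 genes, common biological coefficient of variation 6.011%, 8 residual degrees of freedom). A gene was called where the two-sided p, adjusted by Benjamini-Hochberg over the whole table, was below 0.05, in each of 13 comparisons. Adjusted p-values are from edgeR unless DESeq2 1.42.0 is named. SEs of log2 changes are Wald SEs under the quasi-likelihood variance, or under Poisson variance if that was larger. CPM used TMM-adjusted library sizes. Positions came from GENCODE 29 (GRCh38), promoters from RefSeq. The fit was tested on simulated data.

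All 43 members could be named in every comparison, and of the 5 other pathway lists the 3 called genes of each with the largest absolute log2 change. Members and lists were chosen with earlier results of these data known. Alternatives were DESeq2, other scalings, no filter on low counts, only the groups of the contrast, a replicate block, and leaving out each library.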

Additional observations from a re-analysis of the deposited data

Results flagged for a closer look

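For 6 results the effect of a treatment differed between Vc and Ver by an edgeR test of the difference itself (Ver minus Vc, adjusted over all genes tested). In the response to DHT these were SLC2A5 at -2.65 ± 0.708 (SE, adjusted p = 0.01585), HK2 at 0.84 ± 0.230 (0.02274), SLC16A1 at 0.51 ± 0.126 (0.008348), HIF1A at -0.39 ± 0.0894 (0.002619) and EPAS1 at -0.51 ± 0.101 (2.077e-04). In the response to enzalutamide on top of DHT it was ENO1 at 0.30 ± 0.0690 (0.006267). SLC2A5 passed the filter on low counts through groups with DHT, with 11 control counts in Vc and 15 in Ver, so its result is no support. DESeq2 gave adjusted p of 0.09738 for HK2, 0.01763 for SLC16A1, 0.02407 for HIF1A, 0.001636 for EPAS1 and 4.871e-04 for ENO1, and no adjusted p for SLC2A5. Leaving out 1 library ended the call of each of these genes except EPAS1, whose adjusted p then stayed at or under 0.01306. Vc and Ver were read on different lanes, so lane and line cannot be told apart.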

How the results depend on the processing

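Of 187 calls on members over the 13 comparisons, 126 were kept under every alternative run and 61 were lost under at least 1. For DHT 27 of 33 calls were kept in Vc and 24 of 32 in Ver. Having 2 libraries per group, and counts near 0 (SLC2A3, PDK4, CA9, BNIP3L) limit what could be detected, and the cause of a lost call was not tested. ENO1 with DHT in Ver reversed from 0.04 to -0.1489 (adjusted p = 0.007488) under scaling by total counts.

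DESeq2 called 3 members for the difference in DHT response, 1 higher and 2 lower (edgeR called 5), and 344 of all genes (523 by edgeR). For the difference in enzalutamide response, 5 genes were called, 2 by DESeq2 and 10 with only the groups of the contrast. Without 1 library in turn, members called for the difference in DHT response ranged from 2 to 4 and all genes from 300 to 529. All genes called for enzalutamide ranged from 47 to 62 in Vc (121 with all libraries) and from 112 to 174 in Ver (255), with 0 to 1 member in Ver, and from 1 to 4 for the difference. For the difference in enzalutamide effect on DHT, 0 to 1 member and 93 to 357 genes (291) were called. For Ver against Vc untreated, 2828 to 3191 genes (4252) were called. A library left alone in its group is assumed to vary like the other groups.

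Replicate numbers are shared between groups, but deviations of same-numbered libraries did not correlate (0 of 28 pairs of groups above 0.1, range -0.0231 to 0.0282), so they share only a number. With the replicate block no member's call was lost, and ALDOA was called with enzalutamide on top of DHT in Ver (-0.1292, adjusted p = 0.04973, 0.05078 without the block) and in Ver against Vc with DHT (0.1371, 0.04952, 0.05044 without).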
